A study of Drosophila melanogaster with 2 samples.

Results

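The segmentation genes of the Drosophila melanogaster embryo are described here as possible sites of CG3407, a zinc finger protein. The set holds 34 of 13945 protein-coding genes, chosen by name for their place in the segmentation hierarchy: 4 maternal genes (bcd, nos, cad, tor), 7 gap genes (hb, Kr, kni, knrl, gt, tll, hkb), 3 head gap genes (btd, oc, ems), 10 pair-rule genes (eve, ftz, h, run, odd, sob, prd, slp1, slp2, opa) and 10 segment polarity genes (en, inv, hh, ptc, ci, smo, gsb, gsb-n, mid, nkd). The data were ChIP-seq peak lists, which place DNA recovered with a protein by an antibody, from whole embryos of both sexes 0 to 14 h after laying. All embryos came from 1 transgenic line that makes CG3407 with GFP at its C terminus, and the 2 biological replicates form 1 group with no other genotype beside it. One label field calls the libraries input controls while others name a transcription factor ChIP; they were read as ChIP because the lists were made from them against a separate control file. Whole embryos mix all tissues over a long span of development, so weak binding in many cells and strong binding in a few cannot be told apart. Peaks from flies without the tag, and the reads themselves, were not analysed here, so the depth is unknown.

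Segmentation proceeds as a cascade. Maternal gradients set the body axis, gap genes divide it into broad domains, pair-rule genes turn those domains into stripes, and segment polarity genes fix and keep the boundaries of each segment through Hedgehog and Wingless signalling. Nearly all genes of the upper tiers encode transcription factors, and they are controlled by enhancers that lie within several kilobases of the gene start, upstream, downstream or in introns. Summits at gene starts and summits elsewhere were therefore counted apart.

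The sequences under the summits that the results turn on are printed first, to show the DNA that was recovered. Each line holds the summit base and 50 bases on either side from the dm6 assembly (RefSeq copy), 5′ to 3′ on the coding strand of the named gene, which is minus for nkd and bcd and plus for slp1, btd and cad. Capitals mark motif matches on either strand: GGTCACAC (the core of promoter motif 1) at slp1 and slp2, GAGAG read as CTCTC at bcd, TGTTTGC at cad, TTTATG read as CATAAA in the nkd intron, and TATTTAC beside overlapping TGTTTGC and TTTTTTG in the weaker nkd intron peak. GGTCACAC was added after the slp1 and slp2 sequence had been seen. They are the strongest peak near any of the 34 genes (between slp1 and slp2, chr2L:3832483-3832583), the strongest near a head gap gene (upstream of btd, chrX:9687704-9687804), the promoter peaks of nkd (chr3L:19045571-19045671) and bcd (chr3R:6759608-6759708), intron peaks of cad (chr2L:20780897-20780997) and nkd (chr3L:19042622-19042722), and the weaker nkd intron peak (chr3L:19040562-19040662) with the most motif matches of the 7.
slp1 and slp2, between the genes: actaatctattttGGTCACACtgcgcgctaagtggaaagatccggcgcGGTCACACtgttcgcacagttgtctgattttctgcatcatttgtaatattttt
btd, upstream: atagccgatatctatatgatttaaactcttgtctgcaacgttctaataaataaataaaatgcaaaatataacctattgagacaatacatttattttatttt
nkd, promoter: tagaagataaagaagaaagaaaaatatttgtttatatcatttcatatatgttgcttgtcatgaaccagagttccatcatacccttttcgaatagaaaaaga
bcd, promoter: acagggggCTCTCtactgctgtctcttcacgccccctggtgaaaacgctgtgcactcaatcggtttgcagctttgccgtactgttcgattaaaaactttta
cad, intron: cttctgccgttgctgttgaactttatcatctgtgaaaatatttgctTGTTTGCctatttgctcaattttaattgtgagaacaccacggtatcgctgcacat
nkd, intron nearest the promoter: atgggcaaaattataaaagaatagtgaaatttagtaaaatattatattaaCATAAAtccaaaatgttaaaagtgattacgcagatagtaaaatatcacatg
nkd, weaker intron peak: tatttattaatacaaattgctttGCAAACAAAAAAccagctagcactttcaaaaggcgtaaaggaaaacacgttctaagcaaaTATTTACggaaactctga
The btd and nkd sequences other than the weaker intron peak were rich in A and T, with 22.8% G and C at btd and 27.7% at the nkd promoter, while the bcd promoter peak had 49.5%. Over all summits near the genes the median was 32.7% G and C, against 33.7% at the 4044 other peaks of the list they come from.

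Promoter peaks were found at bcd, h, ptc and nkd. They were counted in the IDR list, whose cut-off comes from the irreproducible discovery rate, a comparison of peak ranks between replicates. The list is the highest part of a pooled list of 30000 candidates by the authors' score, and each replicate has a candidate list of its own. A summit within 500 bp of any annotated transcription start site (TSS) of the gene counted as a promoter summit. The 4 genes make 11.8% of the 34 (95% Wilson interval 4.67 to 26.6, counting error only), and 14.1% of all protein-coding genes had such a summit. None of the 7 gap genes and none of the 3 head gap genes was among them. The share is near that of all genes, and no test was made of a list chosen with results known.

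The promoter peaks of nkd and bcd stood in both replicates. The one at nkd, which encodes a cytoplasmic antagonist of Wingless signalling, had its summit 172 bp upstream of the TSS at 3L:19045532–19045711 and a score of 370.5. It ranked 1152 in the IDR list, 1174 in replicate 1 (score 152) and 1258 in replicate 2 (score 208), where each list has its own scale of scores and only ranks can be set side by side. The summit at bcd, the gene of the anterior homeodomain morphogen Bicoid, lay 192 bp upstream at 3R:6759450–6759865 with a score of 284. It ranked 1805 in the IDR list, 1297 in replicate 1 and 2362 in replicate 2. Both were thus in the top set of each replicate, which here means its highest candidates, as many as the IDR list holds.

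The promoter peaks of h and ptc were high in replicate 2 and lower in replicate 1. At h, the pair-rule gene of the bHLH repressor Hairy (hry in the annotation), the summit lay 48 bp downstream of the TSS in the 5′ UTR (3L:8675599–8676014, score 207, rank 2892). The overlapping candidate ranked 8027 in replicate 1 and 1724 in replicate 2. At ptc, which encodes the Hedgehog receptor Patched, the summit lay 31 bp upstream (2R:8649410–8649825, score 178, rank 3594), and the ranks were 5961 in replicate 1 and 2355 in replicate 2. The replicate 1 candidate overlaps the ptc interval but has its summit outside it, at −265 bp from the TSS. In replicate 1 the candidate with a summit within 100 bp of the ptc summit ranked 12536. Neither was in the top set of replicate 1. That set gave promoter summits at bcd, oc and nkd, 3 of 34 genes, where 14.1% of all genes had one. The top set of replicate 2 gave them at bcd, h, odd, ptc and nkd, 5 of 34, where 14.1% of all genes had one.

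Below the IDR list, the gene starts differed widely. Pooled candidates lay at the TSSs of 15 of the 34 genes, and of 41.6% of all protein-coding genes. The first ones outside the list were at odd, a zinc finger pair-rule gene, with a rank of 4336 and a score of 156, and at oc, the homeodomain gene orthodenticle, with a rank of 4785. The candidate at odd ranked 12512 in replicate 1 and 2935 in replicate 2, and the one at oc 3624 and 8195. Next came ci, the gene of the Hedgehog pathway effector Cubitus interruptus, at rank 5978 and sob, a relative of odd, at 6405. At hb, whose zinc finger protein Hunchback patterns the anterior of the embryo, the best candidate at a TSS ranked 17863. The other members with one were nos (7152), cad (8802), mid (9043), btd (13046), ems (22199) and slp1 (24899). The one at nos was also within 500 bp of a TSS of CG11779. At the TSSs of 12 of the 34 genes there was no summit of any of the 4 lists, among them Kr, knrl, gt, tll, hkb, eve, ftz and run. The matching share over all protein-coding genes is not given, so the 12 cannot be called unusual.

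**Figure D1:**
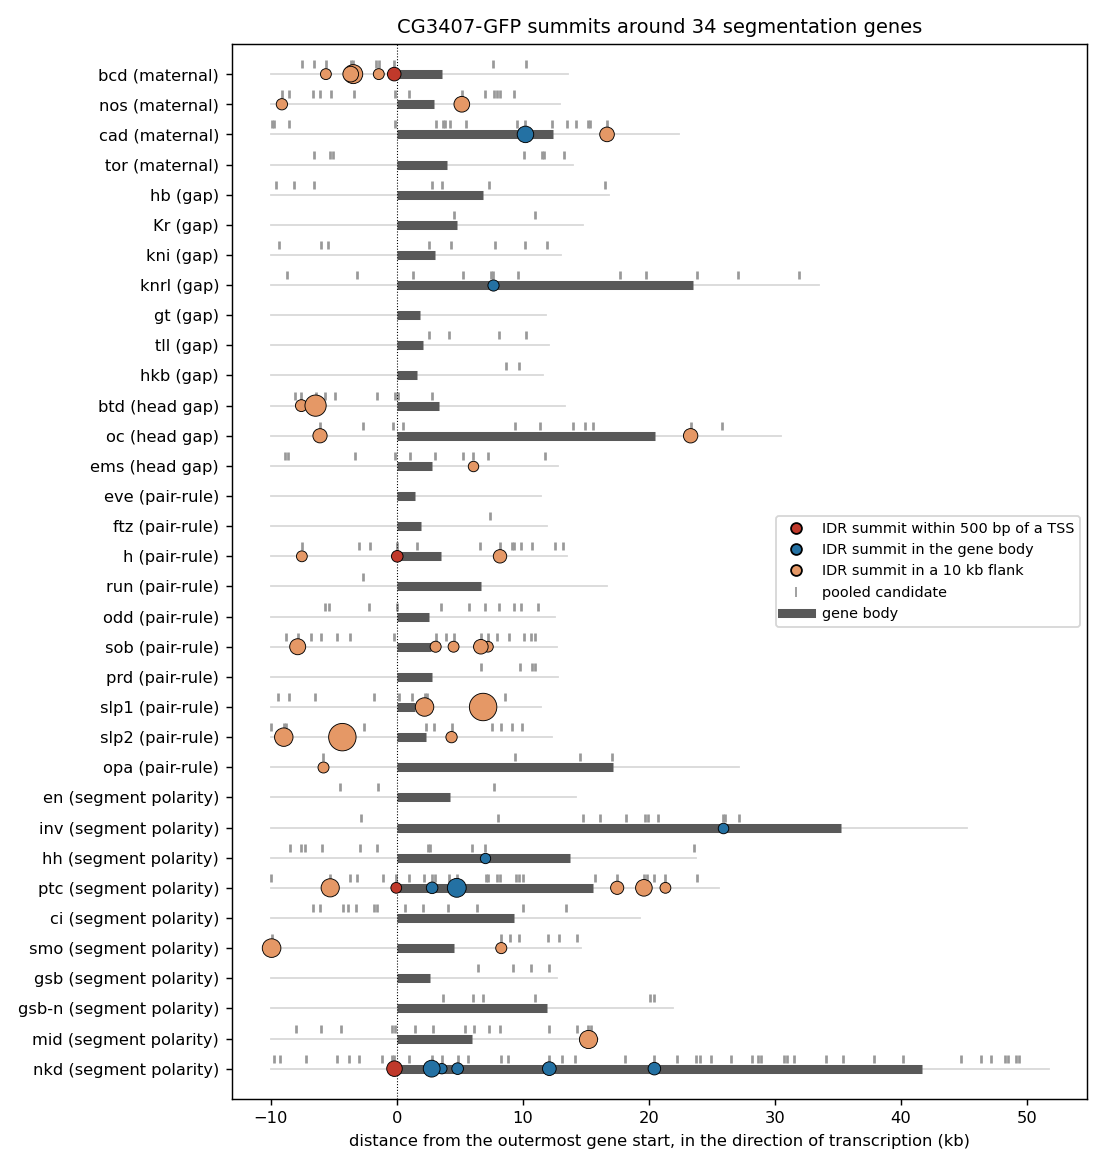
Summits around the 34 genes, by distance in kb from the outermost gene start in the direction of transcription; dark bars are gene bodies and pale lines the 10 kb flanks. Circles are IDR summits coloured by class, with areas in proportion to their scores, and grey ticks are candidates of the pooled list. The largest circle, drawn at both slp1 and slp2, is the peak between them with a score of 1155, and the rows of gt and eve hold neither circle nor tick.

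Inside gene bodies, away from the TSSs, IDR summits lay in nkd, ptc, cad, knrl, inv and hh. These 6 genes make 17.6% of the 34 (Wilson interval 8.35 to 33.5), where 7.46% of all protein-coding genes had such a summit. A longer gene offers more room, and the 6 are all at least 10 kb long. Of the 9 members of that length 6 had one (66.7%, Wilson interval 35.4 to 87.9), where 37.3% of the 1977 protein-coding genes of that length did (a background added once the counts were known). The 9 also include oc, opa and gsb-n, which had none.

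The nkd body held 5 of the 11 body summits. They lay 2777, 3582, 4837, 12110 and 20443 bp downstream of its TSS, with scores of 433, 167, 207, 288 and 242. The highest, at 3L:19042567–19042766, ranked 875 in the IDR list, 1004 in replicate 1 and 753 in replicate 2. The weakest, 3582 bp downstream, ranked 3942 in the IDR list, 5474 in replicate 1 and 3551 in replicate 2, so it was outside the top set of replicate 1. The summit at 12110 bp lies in an exon of lncRNA:CR45940 inside nkd and cannot be credited to nkd alone.

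In ptc the 2 body summits were intronic. The one 4769 bp downstream (2R:8654288–8654567) had a score of 544, the highest of any body summit, and ranked 568 in the IDR list, 651 in replicate 1 and 519 in replicate 2. The one 2812 bp downstream had a score of 205 and ranked 2154 in replicate 1 and 2852 in replicate 2. Both were thus higher in replicate 1 than the ptc promoter peak.

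The remaining 4 genes had a single body summit each, all in introns. In cad, the gene of the posterior homeodomain protein Caudal, it lay 10053 bp downstream of the nearest TSS (2L:20780854–20781063, score 418) and ranked 1070 in replicate 1 and 836 in replicate 2. In knrl, the partner of kni and the only gap gene with an IDR summit in its window, it lay 7654 bp downstream (3L:20612797–20613212, score 191), with ranks of 3680 and 3542. In inv, the homeodomain partner of engrailed, the score was 170 with ranks of 3738 and 4337, and in hh, which encodes the Hedgehog ligand, 163 with ranks of 3205 and 4244. In replicate 1 the candidate with a summit within 100 bp of the hh summit ranked 5081, outside the top set. The hh summit held rank 4075, the lowest of any near the 34 genes. The inv and hh summits were outside the top set of replicate 2.

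Within 10 kb on either side, 14 of the 34 genes had an IDR summit (41.2%, Wilson interval 26.4 to 57.8), where 47.0% of all protein-coding genes did. Such a flank can hold other genes. Of the 30 flank summits, 10 lay within 500 bp of the TSS of another protein-coding gene and 10 inside the body of one, with some counted in both, and 17 lay at neither.

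The highest peak near any of the genes lay between slp1 and slp2, paired genes whose forkhead proteins act in pair-rule and segment polarity patterning. It stood at 2L:3832366–3832664 with a score of 1155, in intergenic sequence 6858 bp downstream of the slp1 TSS and 4307 bp upstream of the slp2 TSS. It ranked 102 in the IDR list, 136 in replicate 1 and 95 in replicate 2. Another intergenic peak 2212 bp downstream of the slp1 TSS had a score of 522 and ranked 609, with 730 in replicate 1 and 535 in replicate 2. A weaker peak downstream of slp2 (2L:3840986–3841401) had a score of 196 and ranks of 3395 and 3249. The slp1 and slp2 windows overlap, so the first 2 peaks count for both genes.

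Upstream of btd, the head gap gene of an Sp-family zinc finger protein, a peak at X:9687590–9687891 had a score of 691 and ranked 353 in the IDR list, 386 in replicate 1 and 335 in replicate 2. It lay 6432 bp upstream of btd in intergenic sequence, within 500 bp of the start of lncRNA:CR42657. A second btd flank summit, 7558 bp upstream with a score of 216, was at a TSS of nej, the gene of the histone acetyltransferase CBP. The oc flanks held intergenic summits 6080 bp upstream (score 310) and 15813 bp downstream of the nearest TSS (score 317), and ems, a homeodomain head gap gene, had 1 at 6034 bp downstream with a score of 167. The ems peak ranked 4713 in replicate 1 and 3807 in replicate 2.

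Upstream of bcd there were 4 flank summits. The strongest, 3444 and 3644 bp upstream with scores of 553 and 378, lay within 500 bp of the TSS of Ama, the gene of a secreted immunoglobulin-domain protein, and of lncRNA:CR45593. Another, 5613 bp upstream with a score of 182, lay in the 3′ UTR of Ama. The nearest, 1417 bp upstream with a score of 183, was intergenic and away from every other gene start, with ranks of 3251 in replicate 1 and 3725 in replicate 2. The stronger bcd flank peaks thus lie at the start of a neighbouring gene.

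The same held at nos, cad and smo. The nos flank summits were at the TSSs of Ppcs (score 195) and of CG42359 and Nsun5 (score 377); nos (nanos in the annotation) encodes a translational repressor of the posterior pole. The cad flank summit was at Pomp (score 328). Those of smo, which encodes the Hedgehog signal transducer Smoothened, were at CG17075 inside Dus1 (score 531) and at CG3625 (score 189). The Ppcs peak ranked 2087 in replicate 1 and 5909 in replicate 2, and the CG3625 peak 6924 and 2373, so each was outside the top set of a replicate.

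Downstream of ptc, 3 summits lay in introns of Acsl, an acyl-CoA synthetase gene, 17492, 19611 and 21319 bp from the ptc TSS with scores of 266, 423 and 180. The one at 21319 bp was also within 500 bp of an Acsl TSS. It ranked 4507 in replicate 1, outside the top set. The ptc flank also held an intergenic summit 5271 bp upstream, at 2R:8644264–8644505, with a score of 507 and ranks of 675 in replicate 1 and 643 in replicate 2. Around sob there were 5 flank summits, with scores of 391, 327, 186, 182 and 177. The highest, 7850 bp upstream, lay in an exon of lncRNA:CR43823, and the 1 with 182 was at the TSS of CG43815. The highest ranked 1658 in replicate 1 and 819 in replicate 2. In replicate 1 the candidate with a summit within 100 bp of it ranked 18107. The peak with 182 ranked 4340 in replicate 1 and the one with 177 ranked 4527 in replicate 2, each outside that top set. Intergenic flank summits away from every annotated start also lay near mid, the gene of the T-box protein Midline (score 505, 15193 bp downstream of its TSS, ranks 646 and 751), h (scores 276 and 180) and opa, the zinc finger gene odd-paired (score 185, 5844 bp upstream).

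**Figure D2:**
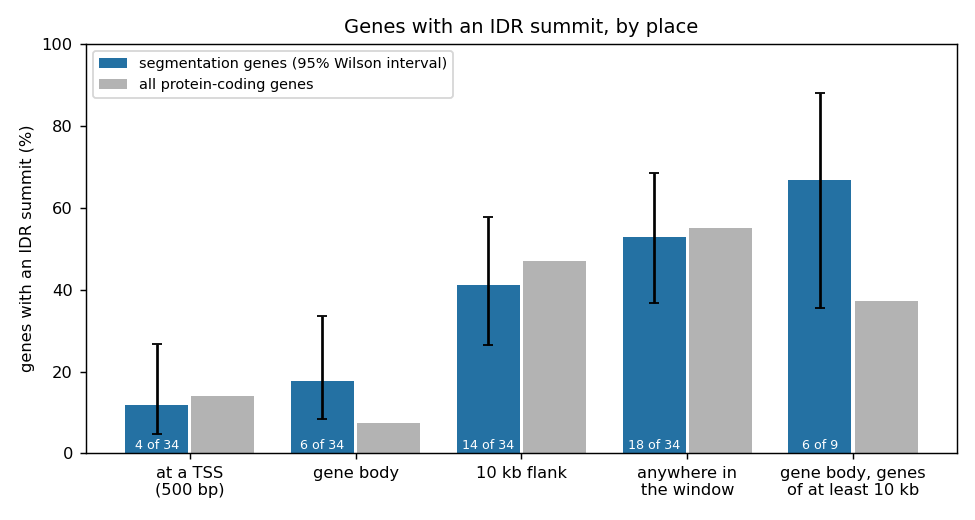
Share of genes (%) with an IDR summit at a TSS, in the gene body, in a 10 kb flank, anywhere in the window, and in the body of genes of at least 10 kb. Blue bars are the segmentation genes with 95% Wilson intervals and the number of genes, and grey bars are all protein-coding genes. At TSSs the blue bar stands at 11.8% beside a grey bar at 14.1%, and for gene bodies at 17.6% beside 7.46%.

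Counting every place, 18 of the 34 genes had an IDR summit (52.9%, Wilson interval 36.7 to 68.5), where 55.0% of all protein-coding genes did. By tier these were 3 of 4 maternal, 1 of 7 gap, 3 of 3 head gap, 5 of 10 pair-rule and 6 of 10 segment polarity genes. The windows, 934.7 kb in 31 separate stretches, held 45 distinct IDR summits, or 4.81 per 100 kb, against 3.05 per 100 kb over the 6 chromosome arms. Candidates of the pooled list were also denser there, with 34.2 against 22.4 per 100 kb, and IDR summits made up 14.1% of the candidates in the windows and 13.6% of all candidates. These densities set windows around genes against whole arms, not against windows around other genes. The IDR summits were unevenly spread, with 7 in the window of ptc, 6 at nkd, 5 each at bcd and sob, and none at 16 genes. The median per window was 1 for the members and 1 for all protein-coding genes. Of the 45 summits, 22 were intergenic, 17 intronic, 3 in 5′ UTRs, 1 in a 3′ UTR and 2 in non-coding exons. The same split over all IDR peaks is not given here, so it sets no trait of these genes. More than 500 bp from every annotated TSS lay 29 of the 45 and 2345 of the 4044 other IDR summits. The windows held a median of 2.88 pooled candidates per 10 kb, and 1.81 for the gap genes, against 2.07 over all protein-coding genes. The median score of the 45 summits was 266, against 262 over all IDR peaks, and none was among the 50 highest.

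The 16 genes with no IDR summit in their windows were tor, hb, Kr, kni, gt, tll, hkb, eve, ftz, run, odd, prd, en, ci, gsb and gsb-n. Of these, 14 had candidates of the pooled list, which ranked below the IDR list. The best pooled candidates in the windows of hb, Kr, kni, tll and hkb ranked 10828, 14859, 10984, 9544 and 10092 of 30000. The one near hkb lay within 500 bp of TSSs of CG1103 and Skp2. Kr, kni, tll and hkb encode zinc finger or nuclear receptor proteins that act mainly as repressors in the trunk and at the poles. The windows of gt, a bZIP gap gene, and of eve, a homeodomain pair-rule gene, held no pooled candidate at all, where 89.9% of all protein-coding genes had at least 1. In replicate 2 alone, gt had 2 candidates with a best rank of 25048, and eve had 3 with a best rank of 11373. In replicate 1 both had none.

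Among the pair-rule genes without an IDR summit, ftz and run, a homeodomain and a Runt-domain gene, had 1 pooled candidate each, with ranks of 9201 and 11800. For odd and prd, a paired-domain gene, the best ranks were 4336 and 5067. Among segment polarity genes the best ranks were 8093 for en, the homeodomain selector of posterior compartments, 5978 for ci, 9282 for gsb-n and 15953 for gsb, both paired-domain genes. The prd candidate lay within 500 bp of a TSS of CG14947, and the gsb-n candidate within 500 bp of a TSS of Nplp1. The best candidate near tor, the gene of the terminal receptor tyrosine kinase Torso, ranked 10297. Apart from knrl, no gap gene had a candidate of either replicate's top set in its window. How many of all protein-coding genes had one is not given, so this sets no trait of gap genes.

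**Figure D3:**
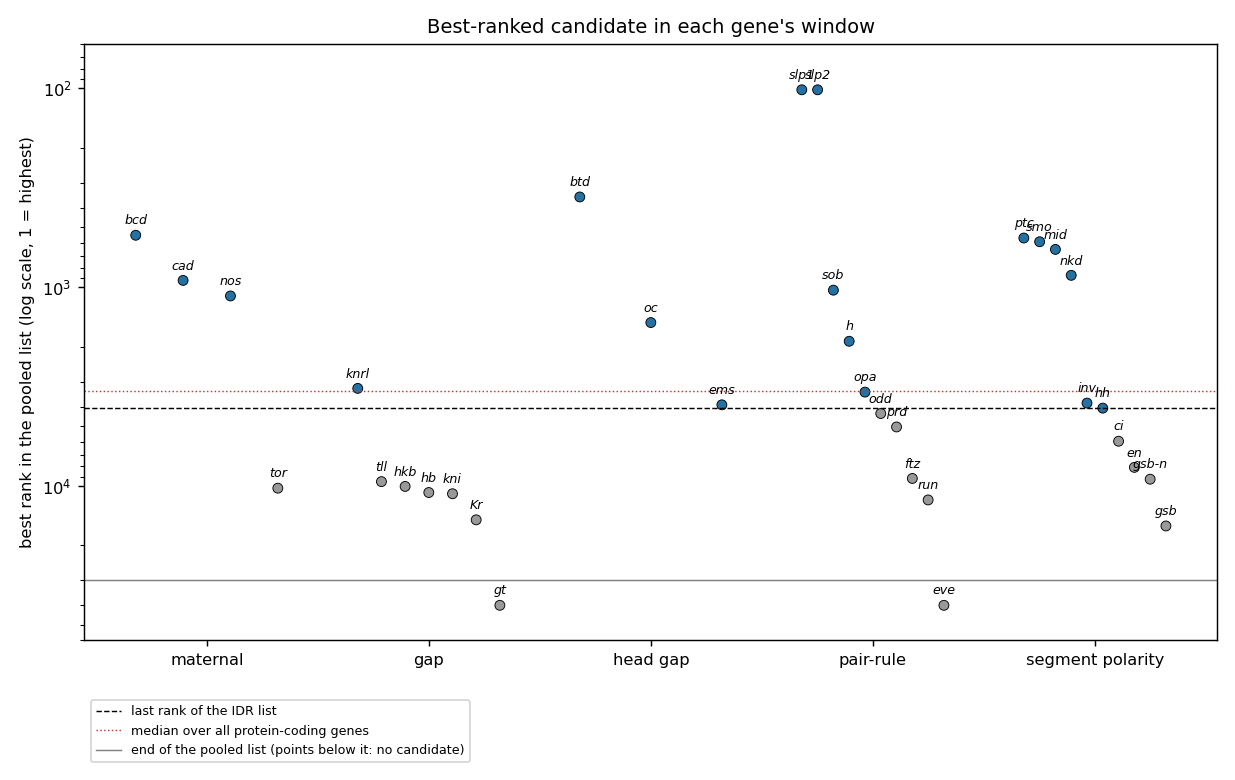
Best rank in the pooled list (log axis, 1 at the top) of any candidate in each gene's window, by tier; blue points lie in the IDR list and grey points below it. The dashed line marks the end of the IDR list, the dotted line the median over all protein-coding genes (3347), and points under the solid line had no candidate. Of the gap genes, knrl at 3241 is the 1 in the list, and the others lie between 9544 and 14859 or have none.

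The distance from a gene's TSSs to the nearest IDR summit ran from 0.031 kb at ptc to 92.4 kb at gsb, with a median of 11.6 kb over the 34 genes and 9.66 kb over all protein-coding genes. It was 59.2 kb for Kr, 48.7 kb for hkb, 32.2 kb for gt, 19.4 kb for eve and 35.5 kb for run. With the flanks widened to 20 kb, 28 of 34 genes had an IDR summit, where 71.9% of all protein-coding genes did. Kr, gt, hkb, run, gsb and gsb-n were the 6 without.

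The replicates gave like ranks to most of these peaks. All 45 summits had a candidate in each replicate, and 34 (75.6%) overlapped the top sets of both, against 76.5% of all IDR peaks. By place these were 2 of 4 promoter, 8 of 11 body and 24 of 30 flank summits. Across the 45 peaks Spearman's rho of the ranks was 0.77, and it was 0.77 across 3908 other IDR peaks with a candidate in both. The peaks share the libraries and were chosen by their pooled score, so the coefficients only describe the lists. The 4 promoter peaks were split, with bcd and nkd on one side and h and ptc on the other.

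**Figure D4:**
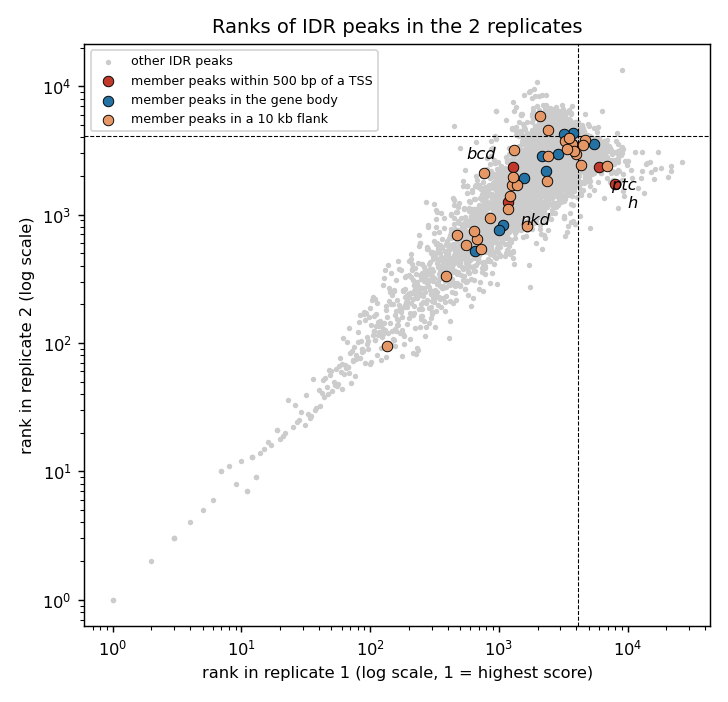
Rank of each IDR peak in replicate 1 (x axis) and replicate 2 (y axis), both on log scales with 1 the highest score; coloured points are the 45 peaks near segmentation genes and grey points the other IDR peaks. Dashed lines mark the end of each top set. The promoter peaks of h and ptc lie right of the vertical line, at 8027 and 5961, and those of bcd and nkd left of it.

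Motif matches were sought within 50 bp of the summit on both strands, and each is a description of the letters there. TATTTAC, which holds the core of forkhead sites, was at 4 of the 45 summits (8.89%, Wilson interval 3.51 to 20.7) and at 8.36% of the 4044 other IDR summits. TGTTTGC was also at 4 (8.89%), against 6.23%. Both words were taken up because they stood out over all IDR peaks in earlier work on these data. The cad intron peak held TGTTTGC beside its summit, and the weaker nkd intron peak held both words, with a TTTTTTG that shares bases with its TGTTTGC.

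Words bound by segmentation factors and by general regulators of the early embryo were sought as well. TTTATG, the core site of Caudal, was at 7 summits (15.6%, interval 7.75 to 28.8), against 13.3% of the others. TAATCC, the core site of Bicoid, was at 1 summit (2.22%), in the Acsl intron near ptc, against 2.5%. TTTTTTG, a Hunchback site, was at 4 (8.89% against 7.32%), and TAATTA, common to many homeodomain proteins, at 4 (8.89% against 9.05%). GAGAG, bound by the GAGA factor Trl, was at 5 (11.1% against 10.6%), which include the promoter summits of bcd, h and ptc. These are 3 of the 16 member summits within 500 bp of any annotated TSS, where 10.6% of the other TSS summits had it. A subset of 16 is too small to set the shares apart. AAGGGTT (Kruppel), CAGGTAG (the pioneer factor Zelda) and TATCGATA (the DRE, bound by Dref) were at none, and at 1.24%, 0.593% and 1.04% of the others. A share of 0 of 45 has a Wilson interval up to 7.87%, so differences of this size were not detectable with 45 summits.

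**Figure D5:**
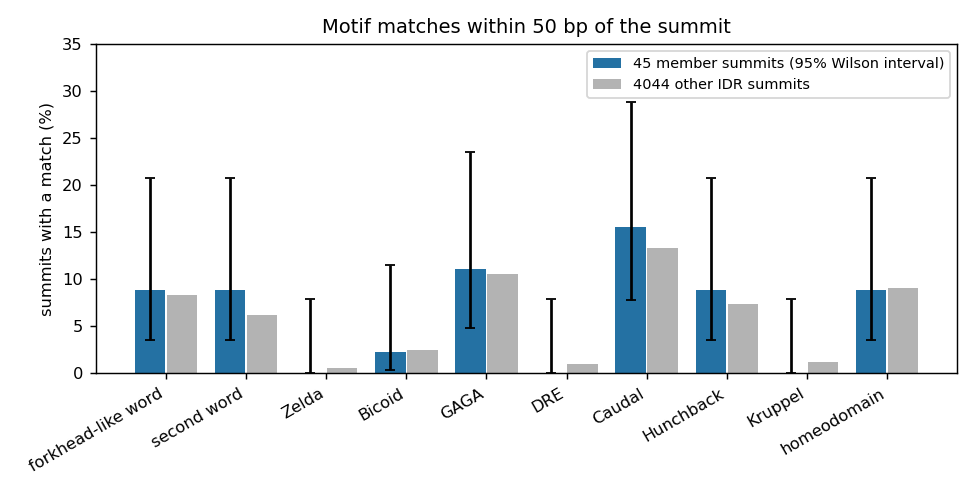
Share of summits (%) with a match to each of 10 motifs within 50 bp, both strands. Blue bars are the 45 summits near segmentation genes with 95% Wilson intervals and grey bars the 4044 other IDR summits. Each grey bar lies within the interval of its blue bar.

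Other genes of the same patterning pathways were read in the same way from a list of 72 that holds no member, also drawn up with earlier results of these data known. Of these, 15 had an IDR summit at a TSS, where 14.1% of all protein-coding genes did, and 53 had 1 anywhere in the window, where 55.0% did. The 72 genes are longer, with a median of 8201.5 bp against 2166 bp over all protein-coding genes, so their windows are longer too. The highest promoter scores were 1096 at fkh, a forkhead gene of the gut ends, 853 at sgg, the kinase of Wingless and Hedgehog signalling, 809 at the co-repressor gene gro, and 772 at bowl, a relative of odd and sob. The others were rdx (458), Trl (436), Apc (287), arr (251), dlp (217), sotv (199), exu (192), phl (190), wls (176), dally (164) and cnc (163). At fkh the summit lay 242 bp upstream and ranked 128. In the Hedgehog list 5 of 16 genes had a promoter summit, in the Wingless list 3 of 16, among maternal and early regulators 5 of 21 and among terminal, trunk and head genes 2 of 19, to be read against the same 14.1% of all genes. The peaks at dlp, exu and wls are also within 500 bp of another coding gene's start.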

How the data were processed

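ChIP-seq lists from 2 biological replicates of CG3407-GFP embryos, 1 group, were used. Per the deposited notes, the candidate lists (30000 intervals each) derive from dm6 alignments and 1 control file, and the IDR peaks from the candidate lists. Not given in the sources used here are aligner, peak caller and IDR threshold. The deposited score has a scale of its own in each list, so ranks were compared; the deposited −log10 q values were not used. The authors pooled both replicates for the pooled list, whose highest intervals are the IDR list.

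Summits were set against Ensembl release 115, whose coordinates matched RefSeq for 34 of 34 members; nos and h were matched through older symbols. Classes were TSS (500 bp), then gene body, then flank (10 kb). Counts over members stand beside those over all 13945 protein-coding genes on 6 arms, with 95% Wilson intervals (scipy 1.17.1) and no test. Classes were checked on planted summits. Members, gene lists and motifs were chosen with earlier results of these data known. Members with an IDR summit are named in full and the others by their best candidates. Alternatives changed the TSS window, flank, peak set, replicate and placement.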

Additional observations from a re-analysis of the deposited data

How the results depend on the processing

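In the whole IDR list the counts at TSSs were the same with windows of 250 and 1000 bp, the outermost TSS alone and overlap of intervals in place of summits, with 4 genes each time. Among the 2044 highest peaks of that list 2 genes had a promoter summit, bcd and nkd, and 3 a body summit, with 23 summits in the windows or 2.46 per 100 kb, as that set is smaller. The same 2 promoters were left among IDR peaks within the highest of both replicates. With flanks of 20 kb, 27 genes had a flank summit and 28 any summit, with 75 summits in all, as the windows are longer. Leaving out a replicate put the top set of the remaining one in place of the IDR list. It gave 3 to 5 genes at TSSs, 4 to 6 in bodies, 15 in flanks, 18 anywhere, and 43 summits (4.6 per 100 kb). The 18 were not the same genes. Without replicate 1, odd came in and inv dropped out, and without replicate 2, odd came in and ems dropped out. Shares over all genes are given for any summit with 20 kb flanks (71.9%) and for TSSs in each top set (14.1%). For the other settings here they are not given. Within 100 bp of summits, GAGAG was at 24.4% and TTTATG at 28.9%, as the windows are longer. Within 50 bp, TAATCC was at 0.0% of TSS summits alone, against 3.002% of the other TSS summits. Away from every TSS TAATTA was at 3.45%, against 8.74% of the others there. The member shares rest on 16 and 29 summits. Overlap by replicate summits within 100 bp, chosen after seeing the data, left 33 peaks among the highest of both. No paired analysis was possible because there is 1 group. The number of members limits every share, and a list of 34 cannot show small differences.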

Other observations

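The peak between slp1 and slp2 held GGTCACAC, the core of promoter motif 1 (bound by M1BP), at 2 places on the same strand, from −37 to −30 bp and from −2 to 5 bp of the summit. The motif was added after this sequence had been seen. It was at 1 of the 45 summits near segmentation genes (2.22%), against 24 of the other 4044 (0.593%). Of those 24, 22 lay within 500 bp of an annotated TSS, where 1.29% of 1699 summits held the motif, and 2 lay away from every TSS, where 0.0853% of 2345 did. The slp1 and slp2 peak has no annotated TSS within 500 bp. Across the whole IDR list it was the 1 peak with 2 or more copies within 50 bp. No test was made, since the motif was picked from this peak.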
